A study of Mus musculus with 8 samples.

Results

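Ribosomal protein pseudogenes were examined in livers of ethanol-fed mice. A row of the gene table was taken as a member when its GENCODE M21 symbol began with Rpl or Rps and ended in -ps with or without a number, and 300 of 55450 rows met this rule. The gene named before -ps was taken as the parent. The members named 62 parents, of which 61 were rows of the table; Rpl48, named by Rpl48-ps1, was not in the annotation. The rule uses symbols only, though it was set with earlier results of these data known.

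Poly(A) RNA of liver was sequenced from 4 mice given AAV-H19 (samples 25 to 28) and 4 given AAV-Null (samples 21 to 24). AAV, adeno-associated virus, is a vector that carries a gene into liver cells, and H19 is a long non-coding RNA from an imprinted locus that is abundant in fetal liver. All 8 mice received the ethanol diet. The promoter of the vectors, what the AAV-Null vector carries, the strain and the age are not given in the labels, and there was no group without ethanol or without virus.

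A processed pseudogene arises when an mRNA is reverse transcribed and the copy is inserted elsewhere in the genome. It therefore has no introns and brings no promoter of its own. Ribosomal protein genes have left more such copies in mammalian genomes than most gene families, since their mRNAs are abundant in every cell, the germ line included. The Rpl genes encode proteins of the large ribosomal subunit and the Rps genes those of the small subunit. Young copies are nearly identical to the parent mRNA, so a sequencing read can match both, and a count given to a pseudogene may come from its parent.

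By the annotation, 287 members were processed pseudogenes, 7 were transcribed processed pseudogenes and 6 were listed as protein coding. Rps4l, a parent by the rule and counted with the parents throughout, is itself annotated as a transcribed processed pseudogene. There were 189 members of Rpl genes and 111 of Rps genes, with transcripts of 151 to 1758 nt and a median of 459.5 nt. Rpl31 and Rps12 had the most copies, 24 each. Rpl21 had 15 copies, Rpl23a and Rps19 had 14 each and Rpl7a had 13. The copies lay on 20 chromosomes, with 35 on chromosome X. Another gene overlapped 33 members on the same strand and 64 on the opposite strand.

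Most copies were close to the parent in sequence. Of 299 members with a parent in the table, 296 aligned to a transcript of it (blastn), with a median identity of 95.9% and a lowest value of 70.9%. Rpl17-ps11 and Rps7-ps2 aligned to no parent gene. There were 13 members identical to a parent transcript over their whole length. The sequences below, read from the GENCODE M21 transcripts (GRCm38), show the range of likeness among members that the results turn on. Each set gives the 90 bases of the parent's coding sequence where the shown copies differ most, 5′ to 3′, and capitals mark bases in which a copy differs from its parent.

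The set for Rps12, a small subunit protein, covers coding bases 212 to 301 and runs from copies that cannot be told apart here to a copy with 5 differences.
Rps12: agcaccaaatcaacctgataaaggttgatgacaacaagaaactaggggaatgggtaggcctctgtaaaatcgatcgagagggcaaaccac
Rps12-ps3: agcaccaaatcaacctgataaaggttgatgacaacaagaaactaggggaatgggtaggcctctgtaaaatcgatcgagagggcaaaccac
Rps12-ps4: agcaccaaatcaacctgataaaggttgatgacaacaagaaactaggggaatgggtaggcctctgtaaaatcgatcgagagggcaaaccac
Rps12-ps24: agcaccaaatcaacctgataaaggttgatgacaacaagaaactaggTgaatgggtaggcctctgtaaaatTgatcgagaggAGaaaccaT
The set for Rpl21, a large subunit protein, covers coding bases 247 to 336, with 1 difference in Rpl21-ps15 and 7 in Rpl21-ps11.
Rpl21: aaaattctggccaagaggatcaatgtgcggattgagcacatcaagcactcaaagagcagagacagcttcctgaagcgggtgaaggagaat
Rpl21-ps15: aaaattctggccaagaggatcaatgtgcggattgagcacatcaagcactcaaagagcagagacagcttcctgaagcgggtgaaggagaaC
Rpl21-ps11: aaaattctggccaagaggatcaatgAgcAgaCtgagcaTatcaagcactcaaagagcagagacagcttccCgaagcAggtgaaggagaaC
The set for Rpl38, a large subunit protein known from mouse embryos for its part in the translation of Hox mRNAs, covers coding bases 1 to 90, and the copy is identical.
Rpl38: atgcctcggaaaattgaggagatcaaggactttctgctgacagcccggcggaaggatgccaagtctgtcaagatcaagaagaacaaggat
Rpl38-ps2: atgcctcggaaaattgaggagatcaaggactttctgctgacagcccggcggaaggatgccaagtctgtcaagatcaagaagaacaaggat
The set for Rpl7a, a large subunit protein, covers coding bases 391 to 480, with 3 differences in Rpl7a-ps5.
Rpl7a: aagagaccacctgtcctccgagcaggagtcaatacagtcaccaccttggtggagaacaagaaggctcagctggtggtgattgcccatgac
Rpl7a-ps5: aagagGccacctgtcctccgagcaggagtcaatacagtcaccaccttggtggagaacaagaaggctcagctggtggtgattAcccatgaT

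Table totals were 63.7 to 78.8 M units in the AAV-H19 livers and 78.3 to 83.0 M in the AAV-Null livers. H19 had 128 ± 21.4 CPM in AAV-H19 livers and 0.601 ± 0.562 CPM in AAV-Null livers (SD, n = 4 each), where CPM is the estimated count relative to the TMM-scaled library total. Hepatocyte markers were abundant in every library, with summed levels of 119566 to 127134 CPM in AAV-H19, against 83910 to 122459 CPM in AAV-Null. AAV-Null 22 and 24 stood apart, with the highest summed pseudogene levels, and counts of calls are also given without them. Across 13538 protein-coding genes, the deviation of a library's log2 CPM from the mean of all libraries rose with transcript length in AAV-H19 (Spearman's rho 0.375, 0.389, 0.449 and 0.218) and declined with it in AAV-Null (−0.122, −0.351, −0.158 and −0.413). The difference had an exact two-sided permutation p of 0.0286, the smallest that 4 against 4 can give. Members are short, so the counts over all tested members, parents and listed genes are also given from a fit in which every library's trend with transcript length was an offset. Length here is that of a gene's longest annotated transcript. For some parents it far exceeds that of the principal transcript, as for Rpl35a (2858 against 519 nt), and the offset treats these parents as long.

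Of the 300 members, 100 had no count in any library and 138 had a count in all 8. The number detected was 158 ± 6.18 in AAV-H19 livers and 167 ± 4.12 in AAV-Null livers (SD, n = 4 each), and the groups overlapped. The filter on low counts (0.128 CPM in at least 4 libraries, with a minimum total) kept 139 members, which held 99.9% of the summed level, and left 161 untested, 61 of them with some counts. Of the 139, 120 exceeded the filter level in every library of both groups. Another 17 exceeded it in all 4 AAV-Null libraries and in fewer than 4 AAV-H19 libraries, and 2 exceeded it in fewer than 4 AAV-Null libraries.

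The summed level of all 300 pseudogenes was lower in every AAV-H19 liver than in any AAV-Null liver. It was 1071, 993, 933 and 1356 CPM in AAV-H19 25 to 28, against 1499, 3781, 1525 and 2452 CPM in AAV-Null 21 to 24. The means were 1088 ± 187 CPM and 2314 ± 1074 CPM (SD, n = 4 each), a ratio of 0.470. AAV-Null 22 and 24 lay far above AAV-Null 21 and 23. AAV-Null 22 had the highest value among the 8 libraries for 107 of the 139 tested members, and AAV-H19 27 had the lowest value for 66 of them.

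The parents had nearly the same ratio. Their summed level was 9000 ± 1642 CPM in AAV-H19, against 19255 ± 8397 CPM in AAV-Null, a ratio of 0.467. Pseudogenes thus amounted to 12.1% ± 0.314 of the summed parents in AAV-H19 livers, against 11.9% ± 0.545 in AAV-Null livers (SD, n = 4 each), and these percentages overlapped. Rpl7a-ps11, Rpl10-ps6, Rpl17-ps5, Rps12-ps3, Rpl17-ps10 and Rps10-ps2 together made up 33.9% of the pseudogene total.

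**Figure D1:**
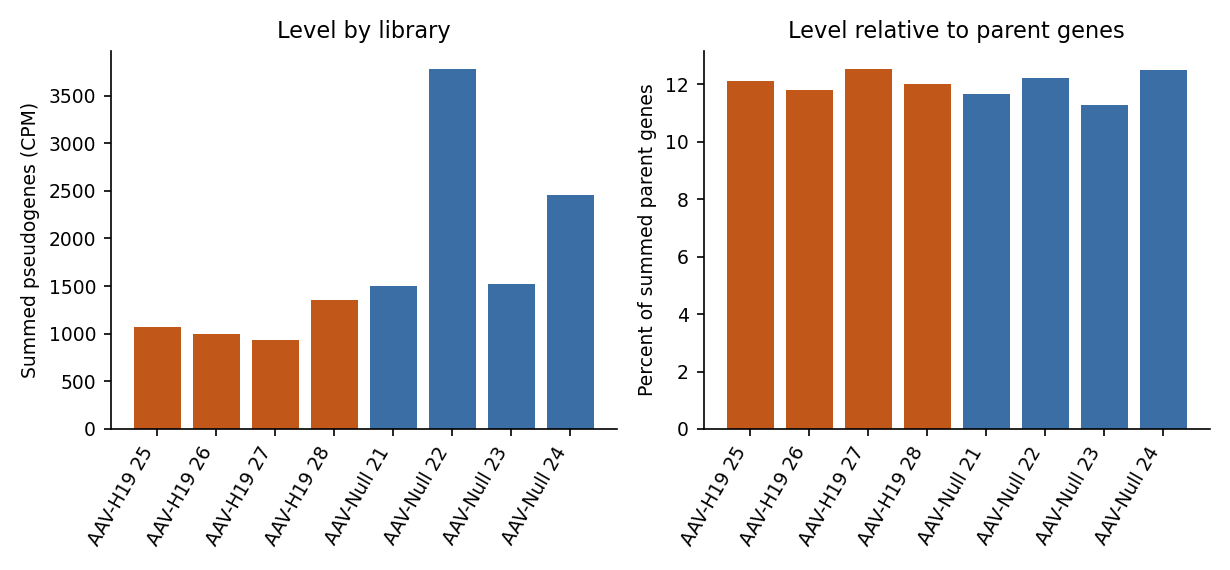
Summed level of the 300 ribosomal protein pseudogenes in CPM (left) and the same as a percent of the summed level of the 61 parent genes (right), with 1 bar per library, AAV-H19 in orange and AAV-Null in blue. Every AAV-H19 bar on the left is below every AAV-Null bar, while the bars on the right lie between 11.3% and 12.5% in all libraries.

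Single pseudogenes were lower in AAV-H19 livers, and none was higher by the test. The test was edgeR's quasi-likelihood test, adjusted over 16672 genes by Benjamini-Hochberg. At an adjusted p under 0.05, 56 of the 139 tested members (40.3%) fell and 0 (0%) rose. By the same edgeR test 101 had an unadjusted p under 0.05, and the share of all genes at that unadjusted level is not given here. At the adjusted level, 6.07% of all genes tested fell and 5.6% rose. Among 1273 other processed pseudogenes tested, 11.2% fell and 3.14% rose, and among the 2179 tested genes with transcripts up to 1000 nt, 21.9% fell and 1.15% rose.

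The log2 change was negative for 137 of the 139 members, with a median of −1.24 and a range of −3.28 to 0.55. The median was −0.02 over all genes tested, −0.36 over other processed pseudogenes and −0.79 over transcripts up to 1000 nt. The 56 that fell had log2 changes of −0.83 to −3.28. Of these 56, 51 were among the 120 members above the filter level in every library, whose median was −1.22. The libraries of the groups did not overlap for 74 members (53.2%), all lower in AAV-H19, against 11.6% of all genes tested.

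Copies of both subunits were among those that fell, 30 of 81 tested for Rpl genes (median log2 change −1.19) and 26 of 58 for Rps genes (median −1.33). By level, 17 of 42 members with a mean of at least 10 CPM fell, and 8 of 36 members with a mean under 1 CPM.

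These calls changed with the length offset and with single libraries left out. The length trend separated the groups, so the offset also removes any group difference that follows transcript length. The trend and such a difference cannot be told apart in this design. With the length offset, 2 members (1.44%) fell and 0 (0%) rose, the median was −0.57 and 121 of 139 changes were negative, while 0.804% of all genes fell and 1.41% rose. Calls numbered 3, 5, 1 and 18 without AAV-H19 25, 26, 27 and 28, and 67, 41, 58 and 23 without AAV-Null 21, 22, 23 and 24. Without both AAV-Null 22 and 24 there were 21, and the median was −0.72. With DESeq2 there were 85 and with limma-voom 34, while 2013 and 819 of all genes fell in these fits, against 1012 in the main fit. Calls over all genes also changed with the library left out, and their range is given at the end. They are not given fit by fit, so whether members lost calls more than other genes cannot be read from these counts. Of the 56 calls, 55 were lost in at least 1 of the 8 fits without a single library.

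**Figure D2:**
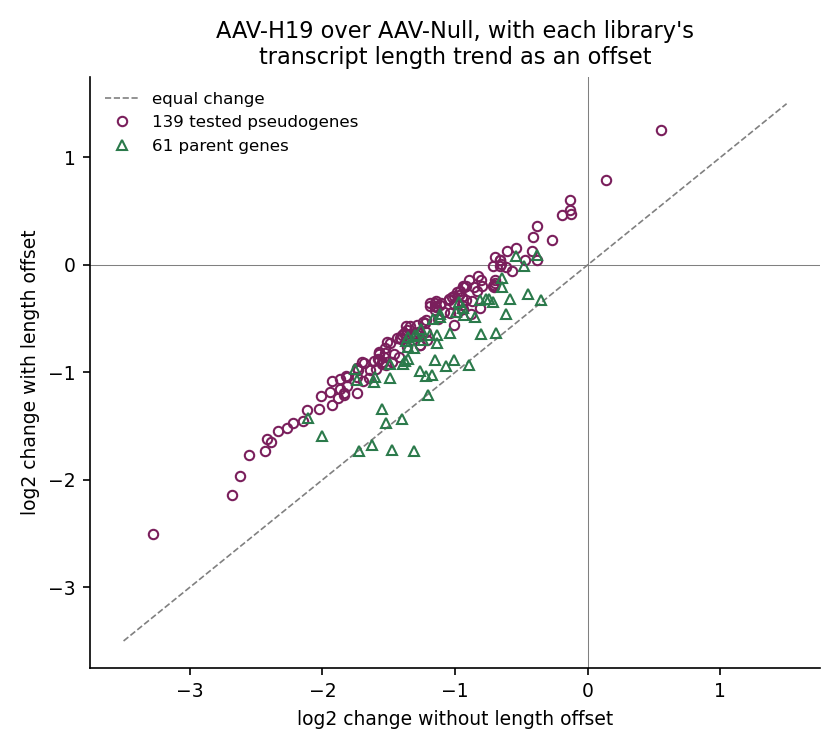
Log2 change in AAV-H19 over AAV-Null without (horizontal axis) and with (vertical axis) each library's transcript length trend as an offset, for 139 pseudogenes (circles) and 61 parent genes (triangles), with the dashed line at equal change. The circles lie above the line, with a median of −0.57 against −1.24 without the offset.

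Rpl21-ps8 had the lowest p. Its level was 10.2, 8.83, 7.67 and 9.44 CPM in AAV-H19 25 to 28, and 20.8, 24.2, 18.6 and 23.8 CPM in AAV-Null 21 to 24. The groups were well apart, and AAV-Null 22 did not stand out. Its log2 change was −1.28 ± 0.17 (SE; edgeR adjusted p = 0.00603), and of the 56 it was the only call present in all 8 fits that left out 1 library. It is a copy of Rpl21 at 98.6% identity, and its parent fell by 1.22 on the log2 scale (edgeR adjusted p = 0.0102, and 0.0562 without AAV-H19 27). With the length offset its log2 change was −0.62 (edgeR adjusted p = 0.061).

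Rpl17-ps5 fell most. It lies at chr5:22612628-22613182 on the minus strand and copies Rpl17, a protein at the peptide exit of the large subunit, at 99.6% identity. Every stretch of 100 bases in it also occurs in another annotated transcript. Its counts therefore cannot be assigned to this locus by such stretches. Its level was 17.1, 18.2, 17.4 and 15.2 CPM in AAV-H19 25 to 28, against 86.6, 350, 61 and 161 CPM in AAV-Null 21 to 24. The AAV-H19 livers had an SD of 1.27 CPM, while AAV-Null 22 and 24 were far above the other AAV-Null livers. The log2 change was −3.28 ± 0.50 (SE; edgeR adjusted p = 0.0098), and −2.50 with the length offset (edgeR adjusted p = 0.0176). The call was lost only without AAV-H19 27 (edgeR adjusted p = 0.0513).

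Rpl7a-ps5, at chr17:57838430-57839221 on the minus strand, was the other member that fell with the length offset (log2 change −1.05, edgeR adjusted p = 0.0388). It had 10.2, 9.23, 9.73 and 8.72 CPM in AAV-H19 25 to 28, and 23.9, 47.8, 18.0 and 29.2 CPM in AAV-Null 21 to 24. Every AAV-H19 liver was below the lowest AAV-Null liver. Without the offset the log2 change was −1.65 ± 0.28 (SE; edgeR adjusted p = 0.0134), and the adjusted p was 0.0537 without AAV-H19 25 and 0.0627 without AAV-H19 27. The copy printed above shows 3 of the bases in which it differs from Rpl7a.

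Other large subunit copies with a low p were Rpl13-ps3, Rpl27-ps3, Rpl19-ps11, Rpl31-ps10, Rpl21-ps11 and Rpl23a-ps3. Rpl13-ps3 averaged 0.470 ± 0.0455 CPM in AAV-H19, against 1.68 ± 0.473 CPM in AAV-Null, a log2 change of −1.84. Rpl27-ps3, identical to Rpl27 over its length, averaged 1.41 ± 0.618 CPM in AAV-H19, against 7.58 ± 3.92 CPM in AAV-Null, a log2 change of −2.42. Rpl19-ps11 averaged 7.91 ± 1.90 CPM in AAV-H19, against 23.2 ± 8.84 CPM in AAV-Null (log2 change −1.55); the provisional gene Gm27288 overlaps it on the same strand. Rpl19 forms a bridge between the ribosomal subunits. Rpl31-ps10 had only 0.232 ± 0.0984 CPM in AAV-H19, against 1.04 ± 0.268 CPM in AAV-Null (log2 change −2.15). Rpl21-ps11, the more diverged Rpl21 copy printed above, averaged 0.633 ± 0.137 CPM in AAV-H19, against 1.75 ± 0.205 CPM in AAV-Null (log2 change −1.46). Rpl23a-ps3 averaged 11.5 ± 0.927 CPM in AAV-H19, against 20.9 ± 3.67 CPM in AAV-Null (log2 change −0.86), and its parent encodes a protein at the exit site where the signal recognition particle docks.

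Small subunit copies with a low p were Rpsa-ps9, Rps6-ps3, Rps12-ps4, Rps23-ps1, Rps10-ps1 and Rps19-ps2. Rpsa-ps9, a copy of the gene also known for the laminin receptor, averaged 10.7 ± 2.33 CPM in AAV-H19, against 25.6 ± 6.16 CPM in AAV-Null (log2 change −1.27). Rps6-ps3, which lies within Rab39 on the same strand, averaged 7.18 ± 0.731 CPM in AAV-H19, against 18.5 ± 6.76 CPM in AAV-Null (log2 change −1.36). Its parent Rps6 is the substrate of the S6 kinases. Rps12-ps4 averaged 8.05 ± 1.46 CPM in AAV-H19, against 28.3 ± 16.5 CPM in AAV-Null (log2 change −1.81). Rps23-ps1, identical to the transcript of Rps23, a protein of the decoding centre, averaged 8.90 ± 0.691 CPM in AAV-H19, against 19.7 ± 6.97 CPM in AAV-Null (log2 change −1.15). Rps10-ps1 averaged 5.70 ± 1.32 CPM in AAV-H19, against 16.5 ± 7.30 CPM in AAV-Null (log2 change −1.53). Rps19-ps2 is a copy of the gene whose human counterpart is mutated in Diamond-Blackfan anaemia. It averaged 0.437 ± 0.158 CPM in AAV-H19, against 2.11 ± 1.20 CPM in AAV-Null (log2 change −2.27). Every stretch of 100 bases in Rps19-ps2 also occurs in another annotated transcript.

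The groups did not overlap for any of these 15 members, and the adjusted p of edgeR's test was 0.00603 to 0.0243. Both follow largely from the choice of the 15 by their p, and the groups were apart for 53 of all 56 calls. Leaving out AAV-H19 27 ended the call for 14 of the 15 (edgeR adjusted p up to 0.091), and leaving out AAV-H19 25 for 13 (up to 0.0806). Without AAV-H19 26 the call ended for 10 (up to 0.0692) and without AAV-H19 28 for 3 (up to 0.0526), while no omission of a single AAV-Null library ended any. Without both AAV-Null 22 and 24 the call ended for Rpl31-ps10 and Rps19-ps2 (edgeR adjusted p 0.0596 and 0.0607).

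**Figure D3:**
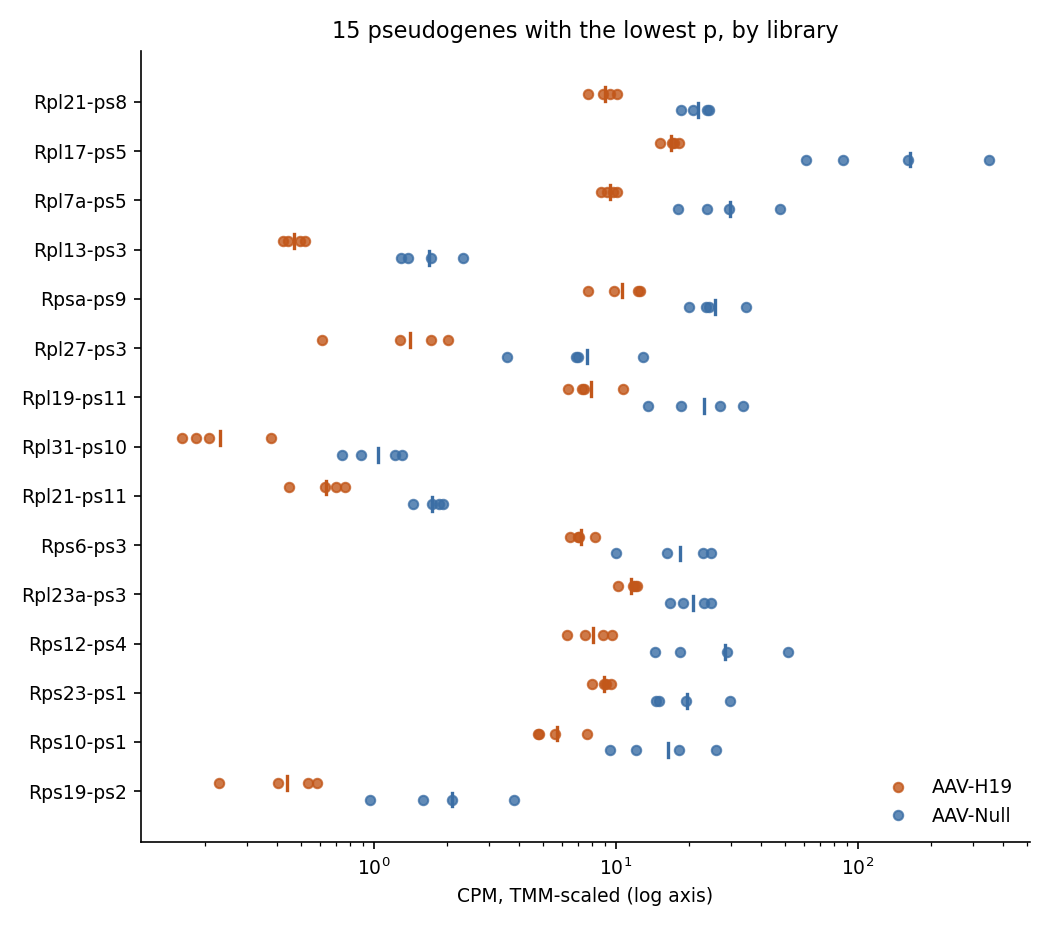
TMM-scaled CPM (log axis) of the 15 pseudogenes with the lowest p among those that fell, with 1 point per library, a tick at each group mean, AAV-H19 in orange above and AAV-Null in blue below. In each row the AAV-H19 points lie left of all AAV-Null points, as for Rpl17-ps5 with means of 17 and 165 CPM.

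Some of the most abundant members fell and others missed the threshold. Rpl7a-ps11, at chrX:166854211-166855011, had the highest level, and every stretch of 100 bases in it also occurs in another annotated transcript. It had 95.2, 92.0, 86.7 and 159 CPM in AAV-H19 25 to 28 and 120, 331, 110 and 192 CPM in AAV-Null 21 to 24. The groups overlapped, since AAV-H19 28 was above AAV-Null 21 and 23, and the log2 change of −0.80 ± 0.36 (SE) missed the threshold (edgeR adjusted p = 0.171). Rpl10-ps6 lies in Ide on the same strand and copies Rpl10, which joins the large subunit late in its maturation. It had 70.5, 46.9, 60.1 and 86.7 CPM in AAV-H19 25 to 28, against 109, 136, 111 and 116 CPM in AAV-Null 21 to 24, with no overlap. Its log2 change was −0.83 ± 0.20 (SE; edgeR adjusted p = 0.033), and the call ended without AAV-H19 25, 26 or 27 (adjusted p 0.0904, 0.0836 and 0.113) or AAV-Null 24 (0.0552).

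Rps12-ps3, listed as protein coding and identical to Rps12 over its length, averaged 49.0 ± 6.27 CPM in AAV-H19, against 126 ± 84.0 CPM in AAV-Null. Its log2 change was −1.37 ± 0.39 (SE; edgeR adjusted p = 0.0514), and it passed the threshold without AAV-Null 21 (adjusted p = 0.0414) or AAV-Null 23 (0.0295). Rps10-ps2 averaged 50.3 ± 7.78 CPM in AAV-H19, against 102 ± 52.7 CPM in AAV-Null (log2 change −1.02, edgeR adjusted p = 0.0635). It too passed without AAV-Null 21 (0.0397) or AAV-Null 23 (0.0461). Rps10 is a small subunit protein that is ubiquitylated when ribosomes collide. For both, the AAV-H19 livers lay below all AAV-Null livers.

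The parents were then set beside their copies. Of the 61 parents, 41 (67.2%) fell by the same test and 0 (0%) rose, all 61 log2 changes were negative, and the median was −1.18 with a range of −2.11 to −0.35. The groups did not overlap for 43 parents (70.5%). With the length offset 2 parents (3.28%), Rpl21 and Rpl38, fell and 0 (0%) rose, with a median of −0.70. Without AAV-H19 25, 26, 27 and 28 there were 2, 3, 1 and 12 calls, without AAV-Null 24 there were 11, and without both AAV-Null 22 and 24 there were 22. The shares over all genes in each of these fits are not given here.

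Of the 56 pseudogenes that fell, 44 had a parent that fell and 12 a parent that missed the threshold. Another 55 members missed it while the parent fell, and for 28 neither passed. The pseudogene's log2 change was below its parent's for 84 members and above it for 55, with a median difference of −0.12. Across the 139 members, which share 48 parents and share libraries and depth, Spearman's rho between pseudogene and parent log2 change was 0.333, a description only. When the counts of all copies were added to their parent, 40 of the 61 totals fell, with a median of −1.19.

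**Figure D4:**
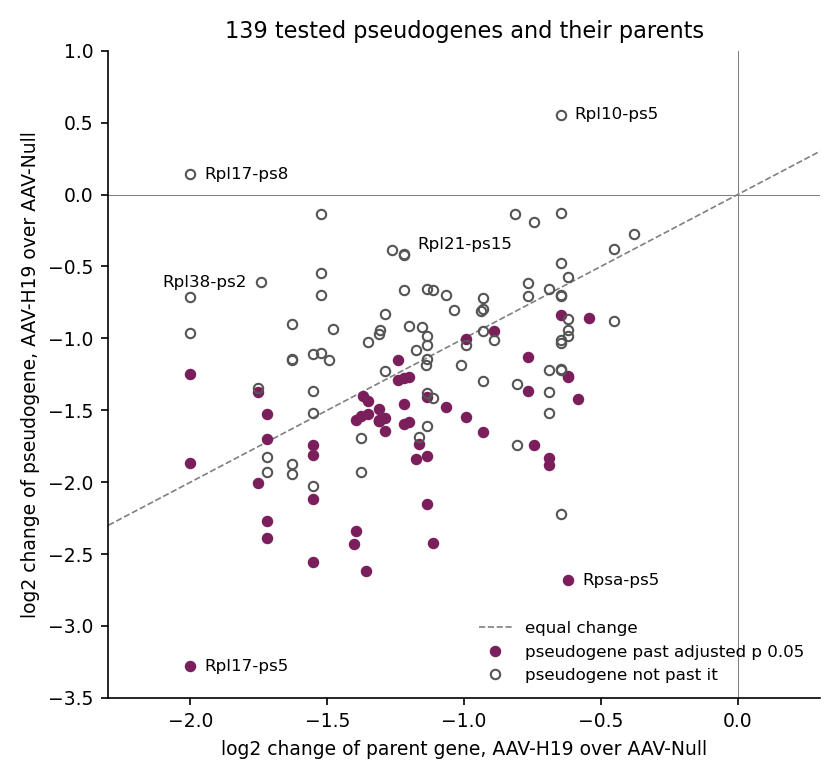
Log2 change of 139 tested pseudogenes (vertical axis) against that of the parent gene (horizontal axis), AAV-H19 over AAV-Null, with filled points for pseudogenes past an adjusted p of 0.05 and a dashed line at equal change. Columns of points are copies of 1 parent, as for Rpl17 at −2.0, whose copies spread between −3.28 and 0.14.

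Copies of a parent differed in their changes. For Rpl17, 6 of 11 copies were tested and 3 fell: Rpl17-ps5, Rpl17-ps4 (log2 change −1.87, edgeR adjusted p = 0.031, and 0.0541 to 0.0977 without AAV-Null 24 or any 1 AAV-H19 library) and Rpl17-ps10 (−1.24, 0.0441). Rpl17-ps9 (−0.96), Rpl17-ps3 (−0.71) and Rpl17-ps8 (0.14) missed the threshold. Rpl17 itself had 68.2 ± 24.9 CPM in AAV-H19, against 273 ± 237 CPM in AAV-Null, a log2 change of −2.0 (edgeR adjusted p = 0.045) that lost its call without AAV-H19 25, 26, 27 or 28 or AAV-Null 22 or 24 (adjusted p 0.064 to 0.135). Rpl17-ps10 averaged 48.4 ± 7.99 CPM in AAV-H19, against 115 ± 61.6 CPM in AAV-Null. Its adjusted p was 0.0715 to 0.127 without any 1 of the AAV-H19 libraries, 0.054 without AAV-Null 22 and 0.08 without AAV-Null 24, and without both its log2 change was −0.49.

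For Rps12, 4 of 8 tested copies fell, with changes of all 8 between −2.56 and −1.11, against −1.55 for the parent. Rps12-ps24, which carries the 5 differences printed above, changed by −2.56 on the log2 scale (edgeR adjusted p = 0.0247, and 0.0571 to 0.0834 without any 1 AAV-H19 library), and Rps12-ps4 had −1.81. For Rps19, 4 of 6 fell, between −2.39 and −1.53, against −1.72 for the parent. For Rps15a, 4 of 5 fell. For Rpl31, 3 of 9 tested copies fell, and 15 of its 24 copies were not tested.

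No tested copy of Rps2 (6), Rpl35a (5) or Rps13 (4) passed the threshold. Rps2 copies had log2 changes of −1.22 to −0.47 and Rpl35a copies −1.94 to −0.90. Rps13 copies had −1.10 to −0.14, against −1.52 for Rps13. Rpl23a, with 14 copies, had 1 tested copy, Rpl23a-ps3.

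The only members with a positive change were Rpl10-ps5 and Rpl17-ps8. Rpl10-ps5, which lies in Nup93 on the same strand, had 38.1, 30.9, 29.5 and 46.6 CPM in AAV-H19 25 to 28 and 14.5, 45.3, 5.37 and 33.8 CPM in AAV-Null 21 to 24. The AAV-Null values spread from far below the AAV-H19 range to near its top, and the log2 change was 0.55 ± 0.52 (SE; edgeR adjusted p = 0.513). Without both AAV-Null 22 and 24 it was 1.87 (edgeR adjusted p = 0.0375), the only member called higher in any alternative run. Rpl17-ps8, in Heph on the same strand, had 25.2, 7.35, 5.88 and 16.2 CPM in AAV-H19, against 6.47, 21, 10.3 and 11.8 CPM in AAV-Null. Its log2 change was 0.14 ± 0.49 (SE), −0.33 without AAV-H19 25 and −0.08 without AAV-Null 21.

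Whether a pseudogene moved apart from its parent was tested on the log2 ratio of pseudogene to parent in each library. In this limma fit over 254 pseudogene and parent pairs of any family, the ratio rose for 2 of 139 ribosomal protein pairs (1.44%) and fell for 0 (0%). The shares were 2.76% and 0.394% over all pairs, and the median change of the ratio was −0.11 for ribosomal protein pairs and −0.02 for all pairs. At an unadjusted p under 0.05 in the limma fit there were 33 of the 139 ribosomal protein pairs. The share of all 254 pairs at that unadjusted level is not given here. With the length trend subtracted, the ratio rose for 11 (7.91%), against 13% of all pairs, and the median change was 0.20 for ribosomal protein pairs, of the opposite sign to that without the subtraction, and 0.42 for all pairs. The subtraction used the longest annotated transcript of pseudogene and parent, and lengths of the principal transcript were not tried.

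Rpl21-ps15, at chrX:151215167-151215649 on the minus strand, moved less than Rpl21 in the deposited counts. Of its stretches of 100 bases, 61.5% occur exactly in Rpl21 and 15.1% in no other annotated transcript. How reads from shared stretches were divided is not given, and the ratio may depend on it. The levels of Rpl21-ps15 come first. It had 42.0, 41.8, 38.7 and 46.2 CPM in AAV-H19 25 to 28 and 46.8, 69.0, 49.9 and 59.2 CPM in AAV-Null 21 to 24. Rpl21 had 25, 21.6, 22.2 and 33.6 CPM in AAV-H19, against 55.2, 65.3, 50.8 and 67.2 CPM in AAV-Null. The pseudogene was thus above its parent in AAV-H19 livers and near it in AAV-Null livers. The log2 ratio was higher in AAV-H19 by 0.83 ± 0.15 (SE; limma adjusted p = 0.0255). The adjusted p was 0.0609, 0.0698 and 0.0623 without AAV-H19 25, 26 and 27, 0.0612 without AAV-Null 21, 0.0754 without AAV-Null 24 and 0.147 without both AAV-Null 22 and 24. The pseudogene's own log2 change, −0.41 ± 0.16 (SE; edgeR adjusted p = 0.124), was 0.26 with the length offset.

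Rpl17-ps3 had 28.8, 25.6, 23 and 54.9 CPM in AAV-H19 25 to 28 and 31.1, 101, 31.9 and 53.4 CPM in AAV-Null 21 to 24, with overlap. Its log2 ratio to Rpl17 was higher in AAV-H19 by 1.07 ± 0.22 (SE, limma adjusted p = 0.0488). Of its stretches of 100 bases, 72.6% occur exactly in Rpl17, so the same limit holds. The adjusted p was under 0.05 in only 1 of the 8 fits without a library, that without AAV-Null 23 (0.0369), and 0.0612 to 0.0932 in the other 7. Without both AAV-Null 22 and 24 the ratio change was 0.79 (limma adjusted p = 0.164).

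The next pairs missed the threshold. Rpl17-ps5 had a ratio lower in AAV-H19 by −1.25 ± 0.29 on the log2 scale (SE; limma adjusted p = 0.0529) and Rpl17-ps8 a ratio higher by 1.73 ± 0.41 (adjusted p = 0.0529). For Rpsa-ps5 the change was −1.58 (limma adjusted p = 0.0637) and for Rpl21-ps10, which Gm43821 overlaps on the same strand, 0.57 (0.0677). Rpsa-ps5 had 0.0540 ± 0.0175 CPM in AAV-H19, against 0.357 ± 0.170 CPM in AAV-Null, so it passed the filter through the AAV-Null group. Without AAV-H19 27 the ratio of Rpl17-ps5 passed the threshold (adjusted p = 0.0209).

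**Figure D5:**
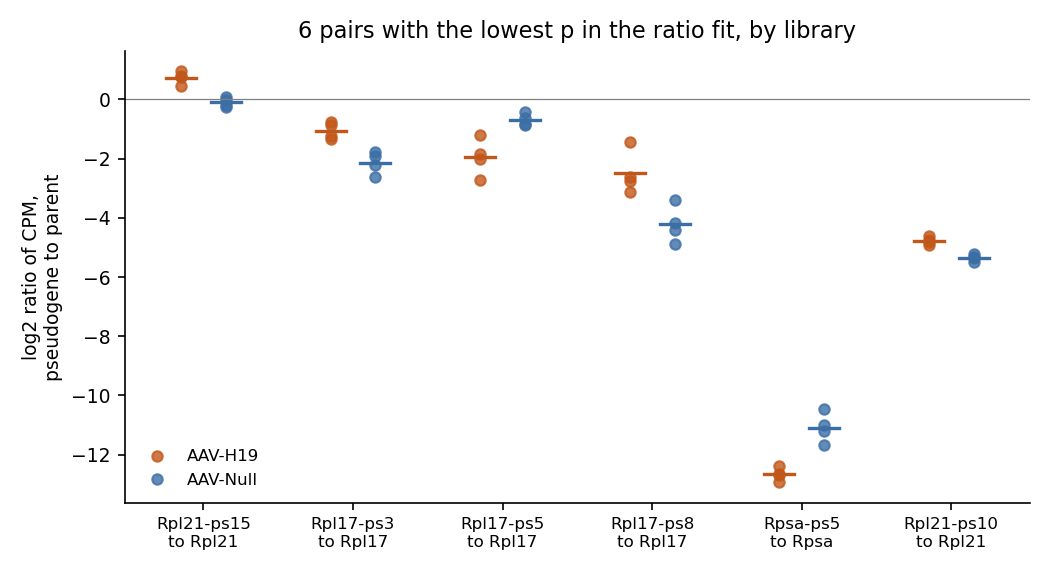
Log2 ratio of CPM of pseudogene to parent for the 6 ribosomal protein pairs with the lowest p in the ratio fit, with 1 point per library, a line at each group mean, AAV-H19 in orange to the left and AAV-Null in blue to the right. The ratio changes by 0.83 for Rpl21-ps15, 1.07 for Rpl17-ps3 and −1.25 for Rpl17-ps5.

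Levels were compared with those of parents per kilobase of the principal transcript. The median tested pseudogene stood at 3.06% of its parent per kilobase, and 93 of 139 were under 10%. The level exceeded the parent's for 6 members: Rpl21-ps15, Rpl7a-ps11, Rpl21-ps8, Rpl17-ps5, Rpl17-ps10 and Rps10-ps2, on the mean of all 8 libraries. Per kilobase, Rpl21-ps15 was at 633% of its parent in AAV-H19 and 362% in AAV-Null. Rpl7a-ps11 was at 173% in AAV-H19 and 158% in AAV-Null, and Rpl21-ps8 at 135% in AAV-H19 and 141% in AAV-Null. These percentages rest on the parent length, which is 1856 nt for Rpl21 against 483 nt for Rpl21-ps15. Rpl17-ps5 was at 59.4% of Rpl17 per kilobase in AAV-H19 and at 144% in AAV-Null, and Rps10-ps2 at 120% of Rps10 in AAV-H19 and at 95.4% in AAV-Null.

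Likeness to other transcripts differed widely among the members. Tested members were closer to their parents (median identity 98.8%) than untested members (91.5%), and all 13 identical copies were tested. For each member, every window of 100 bases was looked up in all other annotated transcripts. The median share of windows found nowhere else was 55.8% for tested members and 100% for untested members. For 22 tested members no window was unique, and 8 of these fell, with a median log2 change of −1.14. Of 77 with some but under 80% unique windows, 27 fell, with a median of −1.15. Of 40 with at least 80% unique windows, 21 fell, with a median of −1.41. The median level of these classes was 14.2, 3.25 and 0.916 CPM in the same order, so the most unique copies were also nearest the filter level. Whether level accounts for the order of the medians was not tested. A count for the 22 members with no unique window cannot be assigned to them by such windows. The sources used here do not say how the authors' counting divided shared reads. All 13 identical copies are among the 22, as are Rpl17-ps5, Rpl7a-ps11 and Rps19-ps2.

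The 13 identical copies are among the 22 members with no unique window. Their counts cannot be told apart from those of the parent by sequence. As deposited, the values of these copies did not all move alike. Rpl27-ps3, Rps23-ps1, Rpl36a-ps2 (log2 change −1.01, edgeR adjusted p = 0.0256) and Rps16-ps2 (−1.44, 0.0321) fell, and Rpl36a-ps2 lies in Ddah1 on the same strand. Leaving out AAV-H19 25, 26 or 27 ended all 4 calls (edgeR adjusted p 0.0537 to 0.109). Leaving out AAV-H19 28 ended those of Rps23-ps1 (0.0515) and Rps16-ps2 (0.0624), and leaving out AAV-Null 24 that of Rps16-ps2 (0.0572). The other 9 missed the threshold, among them Rpl28-ps1 (−0.19), Rps13-ps2 (−0.14) and Rpl10-ps1 (−0.13). Rpl38-ps2, whose printed bases equal those of Rpl38, had 28.1, 17.3, 26.8 and 23.1 CPM in AAV-H19 25 to 28 and 30.4, 45.8, 32.2 and 37.0 CPM in AAV-Null 21 to 24. Rpl38 averaged 45.4 ± 16.1 CPM in AAV-H19, against 152 ± 42.9 CPM in AAV-Null. The log2 changes were −0.61 (edgeR adjusted p = 0.0772) for the copy and −1.74 (0.0134) for the parent. The parent's call ended without AAV-H19 25 (adjusted p = 0.057) or AAV-H19 27 (0.0511). The ratio was higher in AAV-H19 by 1.16 ± 0.32 (SE; limma adjusted p = 0.0677).

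Other genes of the translation machinery were measured from lists. Of 84 tested cytosolic ribosomal protein genes, 59 fell and 0 rose (median log2 change −1.16), and 18 of the 24 among them that no member names as its parent fell. Rps29, a small subunit gene with the lowest p of this list, averaged 120 ± 18.4 CPM in AAV-H19, against 287 ± 27.2 CPM in AAV-Null (log2 change −1.25, edgeR adjusted p = 0.00603). Of 39 translation factors, 4 fell and 1 rose (median −0.34), while 6.07% of all genes tested fell and 5.6% rose. Tpt1, whose mRNA starts with the oligopyrimidine tract that ribosomal protein mRNAs carry, fell (−0.97, edgeR adjusted p = 0.0381), and Eif3a, the largest subunit of initiation factor 3, rose (0.68, 0.0443).

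The other lists had median log2 changes of 0.06 to 0.49. Over all genes tested 6.07% fell and 5.6% rose, and these lists, other than RNA decay, had at most 2 calls in a direction. Of 15 genes that control such mRNAs, 2 rose, Mtor (0.68) and Tsc1 (0.80), and 0 fell (median 0.15). Of 30 ribosome assembly genes, 2 rose and 2 fell (median 0.12), among them Tsr1 (1.19), a 40S maturation factor, and Nhp2 (−1.0), a protein of box H/ACA particles. Of 10 genes of ribosomal stress and p53, Sesn2 (0.99) rose and Bax (−1.16) fell (median 0.06). Of 16 RNA decay genes, 5 rose and 0 fell (median 0.49), with Smg6 (1.56) and Xrn1 (0.92) among them. With the length offset, 3 ribosomal protein genes fell, Tsr1 and 1 RNA decay gene, Smg6, rose, and no other gene of these lists passed. The medians were then −0.66 for ribosomal protein genes, −0.16 for translation factors, 0.09 for assembly and 0.17 for RNA decay, and turned sign to −0.09 for the control of such mRNAs and −0.01 for ribosomal stress. Of the 24 genes past the threshold with the lowest p in their list, at most 3 per list of pathway genes or cell markers, 22 lost the call without AAV-H19 27, 20 without AAV-H19 25, 14 without AAV-H19 26 and 11 without AAV-H19 28 (edgeR adjusted p up to 0.145). Without AAV-Null 21, 22, 23 and 24, 5, 3, 6 and 8 lost it (up to 0.0773), and without both AAV-Null 22 and 24, 5 lost it (up to 0.110).

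Markers of other liver cells were measured beside the pseudogenes. Over all genes tested 6.07% fell and 5.6% rose, or 0.804% and 1.41% with the length offset. Of 8 Kupffer cell markers 6 fell and 0 rose (median −0.98). Their summed level was 132 to 186 CPM in AAV-H19, against 272 to 374 CPM in AAV-Null, and none was at 0. With the length offset 2 of them fell (median −0.73), and no marker of the other cell types below passed. Clec4f, a defining marker, averaged 39.5 ± 8.63 CPM in AAV-H19, against 75.1 ± 6.74 CPM in AAV-Null. Fewer Kupffer cells and less RNA per cell cannot be told apart in whole tissue, and their part in the pseudogene levels was not tested. Of 7 hepatocyte markers Hnf4a rose (0.85). Of 5 endothelial markers Cdh5 rose (0.99) and Clec4g fell (−0.57), at summed levels of 149 to 201 CPM in AAV-H19, against 121 to 172 CPM in AAV-Null. None of 5 stellate cell markers passed (227 to 243 CPM in AAV-H19, against 248 to 325 CPM in AAV-Null). Of 4 cholangiocyte markers Sox9 rose (1.27), at summed levels of 10.9 to 30.2 CPM in AAV-H19, against 8.0 to 15.4 CPM in AAV-Null. Lymphocyte markers were near 0, with summed levels of 0.375 to 0.796 CPM in AAV-H19, against 1.01 to 1.72 CPM in AAV-Null, and of the 2 tested Trbc2 fell (−1.86). Of 3 tested erythroid markers 0 passed (207 to 326 CPM in AAV-H19, against 245 to 711 CPM in AAV-Null), and the other 1 of the list was at 0 in every library.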

How the data were processed

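The authors deposited 1 table of estimated counts (expected counts) per gene for 8 liver samples, not normalized as far as the values show. The submitters' processing notes name HISAT and StringTie without versions; build, annotation and counting step were not given in the sources used here. Per the labels' protocols, libraries were poly(A) and strand-specific. Values were whole as deposited. Low values piled up at multiples of 4 (820 to 990 genes per library at 4, 226 to 285 at 3), so a unit is not a read, and totals limit the precision of each value only as an upper bound. No 2 libraries agreed within sampling noise (chi-square over degrees of freedom at least 27.8).

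All identifiers matched GENCODE M21 (GRCm38), the source of symbols, positions and lengths. Members and gene lists were chosen with earlier results of these data known. Genes passing filterByExpr were tested with edgeR 4.0.16 (TMM, glmQLFit robust, glmQLFTest, no covariates, Benjamini-Hochberg over 16672 genes, threshold 0.05) in R 4.3.3; removed genes held 0.0454% of counts, and the common biological coefficient of variation was 0.389. Pair ratios used limma 3.58.1 (log2 CPM, prior count 2, trend, robust, adjusted over 254 pairs). Likeness used blastn 2.17.0 (e-value 1e-05). The procedure was run on simulated counts, drawn independently for each gene. These counts held no length trend, no shared reads and no outlying library, so the run does not bear on those features.

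Named members were the 15 lowest p past the threshold in each direction, the 6 most abundant, the 3 with the largest ratio to the parent, the 6 lowest p in the ratio fit, the parents, H19 and up to 3 genes per list past the threshold. Other members were named after their values were seen, as were those whose sequences are printed. Alternatives were DESeq2 1.42.0, limma-voom, other scalings and filters, offsets for length and GC content (natural spline, 5 degrees of freedom), values divided by 4, overlapping genes summed and each library left out. Added after seeing the data were leaving out both AAV-Null 22 and 24, family totals and the length trend in the ratio. The labels number each liver and name no litter or batch, so p-values reflect only the spread among these 8 livers.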

Additional observations from a re-analysis of the deposited data

Results flagged for a closer look

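Of 102 groups of 4 libraries examined (each named gene in each group), 1 had a library far from the other 3. Rpl7a-ps11 had 159 CPM in AAV-H19 28, against 86.7 to 95.2 CPM in the other AAV-H19 livers. Chance alone would give about 1 in 20. Its cause was not tested. In AAV-H19 28 the summed pseudogene level, 1356 CPM, was also the highest of its group.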

How the results depend on the processing

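No paired analysis was possible because the groups share no replicate numbers (25 to 28 and 21 to 24). The count of pseudogenes that fell, 56, was 85 with DESeq2, 34 with limma-voom, 2 with the length offset, 21 without both AAV-Null 22 and 24 (1 then rose, against 0) and 1 to 67 without a single library. Parents that fell, 41, numbered 2 with the length offset, 22 without both libraries and 1 to 47 without a single library. The median pseudogene log2 change, −1.24, was −0.57 with the length offset, −0.72 without both libraries and −1.43 to −0.92 without a single library. Over all genes, 1012 fell and 934 rose: 2013 and 1640 with DESeq2, 134 and 235 with the length offset, 1885 and 1694 at an adjusted p of 0.1, and 27 to 1050 and 86 to 1023 without a single library. With upper-quartile factors 1557 genes fell; rises were then 29.6% of calls against 48% with TMM, and 63.7% with the length offset. Upper-quartile factors moved the median of all genes by −0.11 and that of pseudogenes to −1.35.

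Ratios that rose, 2, numbered 0 without both libraries, 4 with a mean filter of 0.5 CPM, 4 with values divided by 4, 11 with the length trend subtracted, 7 at an adjusted p of 0.1 and 0 to 4 without a single library. Ratios that fell, 0, numbered 1, 1 and 9 with that filter, that division and that threshold, and 0 to 1 without a single library. Without Rpl7a-ps11, pseudogenes were 10.9% of parents in AAV-H19 and 10.95% in AAV-Null. Among the genes chosen by the naming rule, the sign turned for Rpl21-ps15 (0.26) and Rpl23a (0.0862) with the length offset, for Rpl17-ps3 without both libraries (0.0718), and for Rpl17-ps8 without AAV-H19 25 (−0.33) or AAV-Null 21 (−0.08), with a range of −0.33 to 0.52 without a single library. Of the values for single named genes under alternatives, 682 kept their direction and side of the threshold, 177 no longer passed, 28 newly passed and 5 turned. Causes were not tested, except that fits without a library have fewer samples. Another 61 members had counts but were below the filter and were not tested.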
